A study of Mus musculus with 13 samples.

Results

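Hepatocytes and liver sinusoidal endothelial cells (LSEC) of the mouse were compared directly, in both directions, on the 6 arrays of the series that carried these cells, 3 hybridised with hepatocyte RNA and 3 with LSEC RNA. The series holds 13 arrays in all. The other 7 were 3 of Kupffer cells, the resident liver macrophages, and 4 of hepatic stellate cells (HSC), the retinoid-storing pericytes of the sinusoid, and they were used here to say with which other cells a gene of the pair was shared. Every sample came from liver of naive C57BL/6 mice aged 6 to 10 weeks. Hepatocytes, LSEC and Kupffer cells were freshly isolated, whereas the HSC had been cultured with serum, 2 arrays after 1 day and 1 array each after 7 and 14 days, so cell type and culture cannot be told apart for HSC. The titles call the arrays of the pair biological replicates. Nothing else says that they came from separate animals, so p-values measure the spread between these arrays, which may be technical. Each gene was read from its highest probe set with a single symbol, and 12081 of 19537 genes were tested after a filter on low values.

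Hepatocytes are the epithelial cells of the liver plate. They synthesise plasma proteins, bile acids, urea and glucose and clear drugs, whereas LSEC form the fenestrated wall of the sinusoid, take up waste macromolecules by scavenger receptors, and face the hepatocyte across a thin perisinusoidal space. The cells are known to signal to each other: endothelial BMP and Wnt ligands set hepcidin output and metabolic zonation in hepatocytes, and hepatocyte VEGF maintains the endothelium.

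Values are probe-set intensities on a linear scale, with array medians between 216.5 and 232.9 over the series, and differences are given as log2(intensity + 83), where the constant understates the difference of dim genes. A difference given without a sign is its size, toward the cell named; a signed one is LSEC minus hepatocytes. Across probe sets, arrays correlated at r = 0.9859 to 0.9925 among hepatocytes and 0.9902 to 0.9957 among LSEC. Probe sets are not independent replicates, and precision is limited by how few arrays each group holds. The label of each group was checked against 4 anchor genes. Tat, the tyrosine aminotransferase of the hepatocyte, read 10529.7, 11154 and 12267 on hepatocyte arrays 1, 2 and 3 and 116, 101 and 115 on LSEC arrays 1, 2 and 3. Cps1, the entry enzyme of the urea cycle, read 8681, 7735 and 8463 on hepatocytes and 109.5, 106 and 110.4 on LSEC. For both genes every hepatocyte array lay far above every LSEC array. Stab2, the hyaluronan scavenger receptor of LSEC, read 7489.8, 6359 and 4177 on LSEC and 315, 251 and 291 on hepatocytes. Lyve1, a further hyaluronan receptor, read 8384, 7826 and 7530.3 on LSEC and 522, 424 and 624 on hepatocytes. Neither gene overlapped between the groups, and LSEC array 3 read lowest of the LSEC arrays for both.

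Calls required a log2 difference of 1 or more, which is 2-fold after the constant is added, together with a Benjamini-Hochberg adjusted p under 0.05 in limma. By this rule 1510 genes (12.5% of those tested) were higher in LSEC and 1209 genes (10.0%) were higher in hepatocytes. The fold threshold did most of the choosing, since 8412 genes (69.6%) had an adjusted p below 0.05 and no gene with a difference of 1 or more missed it. The arrays of the groups did not overlap for 2716 of the 2719 called genes, against 8721 of all genes tested (72.2%). The calls were made from these same arrays, so this is no separate support for them. More genes were higher in LSEC, though the counts were near equal with quantile normalization (1318 and 1304). The differences were wider toward hepatocytes. The median size was 1.98 over the hepatocyte-high genes and 1.47 over the LSEC-high genes. A difference of at least 4 was reached by 172 hepatocyte-high and 47 LSEC-high genes, and one of at least 5 by 70 and 3. Over all genes tested the median of LSEC minus hepatocytes was 0.10.

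**Figure D1:**
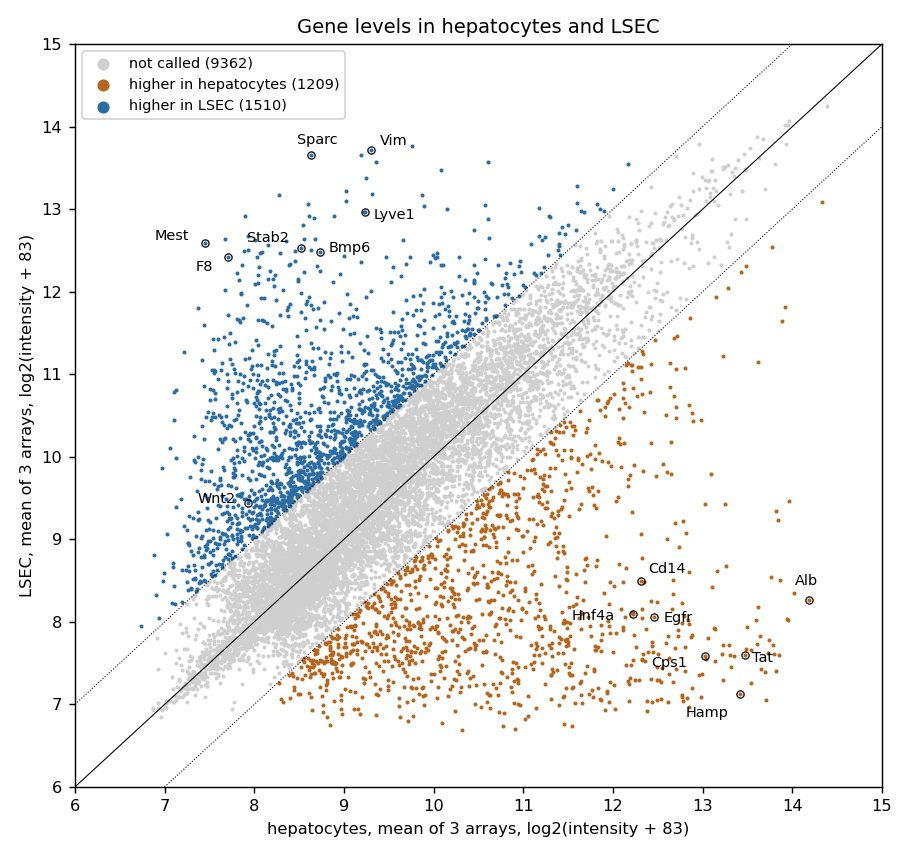
Mean log2(intensity + 83) of each gene tested in hepatocytes (x axis, 3 arrays) and LSEC (y axis, 3 arrays). The solid line marks equal levels and the dotted lines a difference of 1. The hepatocyte-high genes (1209) reach farther from the line than the LSEC-high genes (1510), and the circled genes are named in the text.

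Plasma proteins gave the widest differences of the pair. Of 44 secreted plasma proteins measured, 42 passed the filter and 41 were higher in hepatocytes, against 10.0% of all genes tested, with a median LSEC minus hepatocyte difference of -5.24. Serpina1c, an alpha-1-antitrypsin and the widest difference of all, read 12227, 13513 and 14312 on hepatocytes and 50.6, 55.1 and 44.1 on LSEC. All LSEC readings lay below the constant added, so its difference of 6.66 (SE 0.31, adjusted p = 1.5e-09) understates the ratio of intensities. Near-identical genes of this family may share its probes, so the identity of the copy is uncertain, and the same holds for Mup3. Albumin, Alb, read 18474, 18674 and 18564 on hepatocytes and 171, 235 and 278 on LSEC, a difference of 5.92 (SE 0.31). The fibrinogen chains Fgg and Fgb differed by 6.41 and 5.96, the carrier proteins Rbp4, Hpx and Trf by 6.19, 5.93 and 5.91, and Ahsg, Orm1, Mup3 and Kng1 by 6.25, 6.22, 6.28 and 6.11. These genes span carriers, clotting proteins and protease inhibitors. The exception on the list was Igfals, the acid-labile subunit that carries IGFs, at 249.8 ± 31.8 on hepatocytes and 128 ± 3.19 on LSEC (intensity, mean ± SD, n = 3), a difference of -0.65, under the fold threshold.

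The promoters of 3 of these genes are shown because they hold the same short match just before the RefSeq start, GTTAAT or its reverse complement (in capitals), the core that HNF1, a homeodomain factor of liver and kidney, is known to recognise. They run 5′ to 3′ in the direction of the gene, over the 120 bases before the start, in RefSeq's GRCm38.p6 windows. Alb lies at chr5:90460750-90460869 on the plus strand, Fgb at chr3:83049864-83049983 on the minus strand and Serpina1c at chr12:103904951-103905070 on the minus strand.
Alb: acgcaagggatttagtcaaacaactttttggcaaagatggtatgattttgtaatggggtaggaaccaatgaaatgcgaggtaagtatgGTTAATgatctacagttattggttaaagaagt
Fgb: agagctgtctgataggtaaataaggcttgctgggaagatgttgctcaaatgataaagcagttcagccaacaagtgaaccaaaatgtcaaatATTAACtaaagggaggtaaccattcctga
Serpina1c: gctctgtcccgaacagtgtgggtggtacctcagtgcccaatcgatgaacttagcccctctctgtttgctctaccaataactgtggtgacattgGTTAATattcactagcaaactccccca
The match began 32, 29 and 27 bases before the start in Alb, Fgb and Serpina1c. Among the 15 widest hepatocyte-high genes, 12 had a window and these 3 held the match. Windows of 300 bases (250 before to 50 after the start) were searched on both strands. GTTAAT occurred in 8.7% of the 1219 windows of hepatocyte-high genes, 4.86% of the 1585 windows of LSEC-high genes, 4.47% of the windows of all genes tested and 7.1% of all 32851 windows. CAAAGTCCA, a match to HNF4, occurred in 1.64%, 0.505%, 0.519% and 0.475% in the same order, and TGTTTAC, a match to FOXA factors, in 3.61%, 2.4%, 2.66% and 3.65%. CCGGAAG, a match to ETS factors, occurred in 8.04% of windows of hepatocyte-high genes, 10.4% of those of LSEC-high genes and 8.86% of all windows, but in 1980 of the 12337 windows of genes tested, a larger share than in either group. The GATA match AGATAAG was in 3.28% of hepatocyte-high and 2.33% of LSEC-high windows, against 2.08% of the windows of genes tested and 3.04% of all. The SOX match ACAATGG was in 2.79% and 2.71%, against 2.08% of tested and 3.66% of all. The E-box CACGTG was in 7.71% and 9.84%, against 9.81% of tested and 7.15% of all. The C/EBP match TTGCGCAA was in 0.164% and 0.252%, against 0.267% of tested and 0.183% of all. These shares are descriptions of letters in a window and were not tested.

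Metabolic enzymes of the hepatocyte formed the next groups. On the list of amino acid and urea metabolism, 38 of the 39 measured genes were higher in hepatocytes (median -2.86). The share over all genes tested was 10.0%. Besides Tat and Cps1 the widest were Mat1a, which makes S-adenosylmethionine (5.62), the tryptophan dioxygenase Tdo2 (5.34), the cysteine dioxygenase Cdo1 (5.20) and Hpd of tyrosine breakdown (5.04). Glul, the glutamine synthetase of pericentral hepatocytes, was the exception. It read 3555, 4663 and 4432 on hepatocytes and 3238, 2689 and 1959 on LSEC. The groups did not overlap, but the difference of -0.68 was smaller than 1. Of 43 cytochrome P450 and conjugation genes that passed the filter, of 45 measured, 42 were higher in hepatocytes (median -4.40), against the same 10.0%. Cyp2e1 and Cyp2f2, at 6.30 and 6.06, led the list, followed by Cyp3a11 (5.88), the carboxylesterase Ces3a (5.71), Cyp2d26 (5.51) and the glucuronosyltransferase Ugt2b1 (5.45). Several belong to families of similar genes whose probes may overlap. Fmo1, a flavin monooxygenase, did not separate the cells, with 2414, 2697 and 3473 on hepatocytes and 3042, 3208 and 1521 on LSEC and overlapping arrays (-0.19, and 0.14 without LSEC array 3).

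Called transport and fuel metabolism genes were mostly higher in hepatocytes, with some higher in LSEC. Over all genes tested the shares were 10.0% and 12.5%. For the transport, glycolytic, fatty acid and cholesterol lists the LSEC-high share was near or below 12.5%, and nothing is read from it. Among bile acid and membrane transport genes (43 passed of 44 measured), 30 were higher in hepatocytes and 7 in LSEC. The amino acid transporters Slc38a3 (5.05) and Slc38a4 (4.88), the bile acid uptake carrier Slc10a1 (5.04) and the oxysterol hydroxylase Cyp7b1 (4.75) were higher in hepatocytes. LSEC were higher for the water channel Aqp1, which read 4496, 3906 and 1505 against 181, 218 and 234 in hepatocytes. They were also higher for the efflux pumps Abcb1b (2.5) and Abcc4 (2.13) and the prostaglandin carrier Slco2a1 (1.32). For these 4 genes no LSEC array overlapped a hepatocyte array, as held for 72.2% of all genes tested. Aqp1 on LSEC array 3 was well under the other LSEC arrays. The glycolytic and gluconeogenic list gave 15 hepatocyte-high and 3 LSEC-high of 32 genes that passed (33 measured). Pyruvate kinase and glycogen phosphorylase were split by isozyme. Pklr, the liver pyruvate kinase, was higher in hepatocytes by 3.55 and Pkm, the isozyme of most other tissues, was higher in LSEC by 1.32 (1823 ± 46.9 in hepatocytes and 4686 ± 497 in LSEC). Pygl, the liver phosphorylase, was higher in hepatocytes by 3.58 and Pygb, the brain form, in LSEC by 1.23. The gluconeogenic genes Fbp1 (5.93), G6pc (5.0) and Pck1 (3.78) and the fructose kinase Khk (3.55) were hepatocyte-high. Of 45 fatty acid, ketone and lipoprotein genes, all of which passed, 22 were hepatocyte-high, led by the desaturase Scd1 (5.88), Slc27a2 (5.60) and the fatty acid binding protein Fabp1 (5.59). The 3 that were LSEC-high were Gpihbp1, which holds lipoprotein lipase on capillaries (2.47), the fatty acid receptor Cd36 (1.97) and Oxct1, the ketone-using transferase that hepatocytes are known to lack (1.47). Cd36 read 2459.9, 1449.6 and 451 on LSEC arrays and averaged 247 ± 54.3 on hepatocytes, and LSEC array 3 was the lowest of its group. The difference was 1.47 without LSEC array 1 and 2.59 without LSEC array 3. Cholesterol synthesis and uptake genes were hepatocyte-high for 11 of 23 and LSEC-high for none, with Tm7sf2 (3.35) and Insig2 (2.54) at the top.

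**Figure D2:**
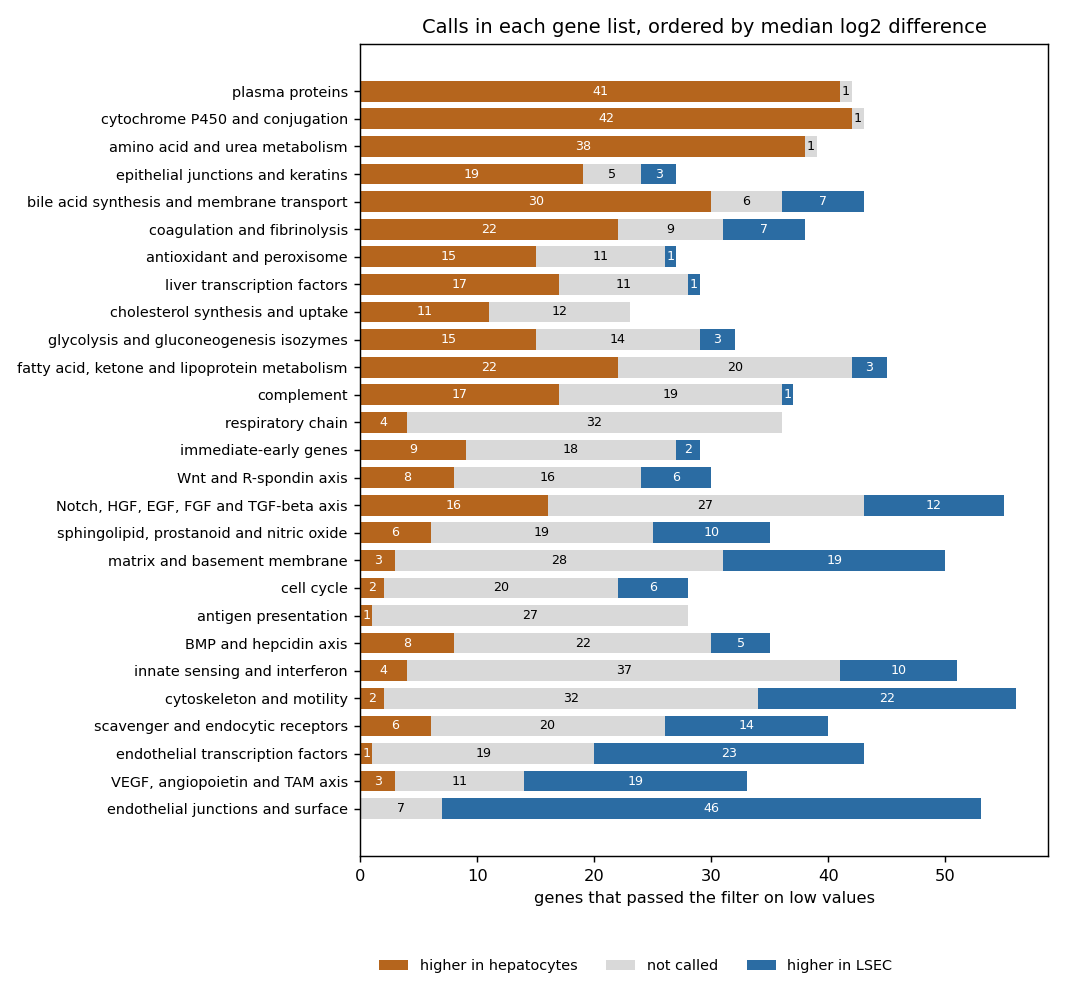
Number of genes of each of 27 lists that passed the filter and were higher in hepatocytes, not called, or higher in LSEC, ordered by the list's median difference. Plasma protein, P450 and amino acid genes lie at the hepatocyte end with 41, 42 and 38 hepatocyte-high genes, and endothelial junction and surface genes at the LSEC end with 46 LSEC-high genes. Over all genes tested, 10.0% were hepatocyte-high and 12.5% LSEC-high.

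Endothelial surface and junction genes marked the other side. Of 56 measured, 53 passed, 46 were higher in LSEC, against 12.5% of all genes tested, and none in hepatocytes (median 3.33). Adgrl4, an adhesion receptor of endothelium, read 9221, 7881 and 6144 on LSEC and 149, 136 and 182 on hepatocytes, a difference of 5.02 (SE 0.14). Eng, the BMP co-receptor endoglin, read 9749, 10120.3 and 7632 and 237, 172 and 279, a difference of 4.89. For both genes the arrays were far apart, and LSEC array 3 was the lowest LSEC array. Mmrn2, Emcn, Nrp2 and Ptprb followed at 4.46, 4.43, 4.41 and 4.41. Jam3 (0.88), Nrp1 (0.87) and Icam1 (0.72) fell short of the fold threshold, but Jam3 and Nrp1 passed it without LSEC array 3 (1.01 and 1.19). Vwf, the clotting carrier that large vessels store, read 212, 197 and 203 on hepatocytes and 275, 259.9 and 221 on LSEC, a difference of 0.22. Among the 15 widest LSEC-high genes were also the imprinted hydrolase Mest (5.14), the signalling exchange factor Rasgrp3 (4.97), the transmembrane gene Tmem47 (4.62), the aldo-keto reductase Akr1b8 (4.58) and Igfbp7 (4.47). Mest read 7333, 6729 and 4524 on LSEC and 100.2, 66.1 and 112 on hepatocytes.

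Scavenger and endocytic receptors fell on both sides. Of 40 that passed, of 42 measured, 14 were LSEC-high and 6 hepatocyte-high, against 12.5% and 10.0% of all genes tested. The hepatocyte-high share is near that of all genes, and nothing is read from that count. The LSEC genes were led by the endocytic adaptor Dab2 (4.22), the inhibitory Fc receptor Fcgr2b (4.08), Stab2 (4.01), Lyve1 (3.73), Stab1 (3.52) and the mannose receptor Mrc1 (3.47). The hepatocyte genes were Pigr, which carries IgA (4.81), both asialoglycoprotein receptor subunits Asgr2 (3.63) and Asgr1 (3.47), the transferrin receptor Tfr2 (3.17), Lrp1 (2.17) and Cd302 (1.86). Asgr1 read 1947, 1946 and 2708 on hepatocytes and 116, 112 and 135 on LSEC, while Mrc1 read 109.8, 108 and 94.8 and 2652, 2476 and 1188. These genes did not overlap between the groups.

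Transcription factors, junctions and keratins separated the lineages as well. Of 29 liver transcription factors that passed, of 33 measured, 17 were hepatocyte-high and 1 LSEC-high, against 10.0% and 12.5% of all genes tested. Hnf4a, the nuclear receptor that keeps hepatocyte identity, was hepatocyte-high by 4.13, the glucose-sensing Mlxipl by 3.16 and the lipid-sensing Ppara by 2.63. The GATA factors took opposite sides. Gata6 read 2458, 2436 and 2735 on hepatocytes and 316, 254 and 314 on LSEC. Gata4 read 693, 657 and 605 on hepatocytes and 2416, 3137 and 2135 on LSEC. Neither gene overlapped, and the differences were 2.80 toward hepatocytes and 1.83 toward LSEC. Foxa2 (-0.96), Rora (-0.95) and Zbtb20 (0.98, toward LSEC) were just under the threshold. Each passed it under some settings, Foxa2 with a constant of 16 (-1.21), Rora with quantile normalization (-1.12) and Zbtb20 without hepatocyte array 1 (1.19). Of 43 endothelial transcription factors that passed, of 48 measured, 23 were LSEC-high, against 12.5% of all genes tested. They were led by Bcl6b (4.39), Meis2 (4.0), Tfec (3.93), Tcf4 (3.88) and Sox7 (3.67). Prox1, known both as a lymphatic endothelial and as a hepatoblast factor, was the 1 hepatocyte-high gene of that list, at 429.8 ± 102 on hepatocytes and 108 ± 19.5 on LSEC. Among epithelial junction and keratin genes, 19 of 27 that passed (34 measured) were hepatocyte-high, against 10.0% of all genes tested. They included Krt18 (5.36), Krt8 (4.5), Cldn1 (3.69), Cdh1 (3.58) and the gap junction gene Gjb2 (3.10). Gja1, the connexin of vessels, was LSEC-high by 3.97 and the tight junction scaffold Tjp1 by 2.14.

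In the BMP and hepcidin axis the ligands Bmp2 and Bmp6 were higher in LSEC. Hepcidin and several receptor genes of the axis were higher in hepatocytes. Bmp2 read 4329.6, 4211 and 1784 on LSEC and 141, 143 and 171 on hepatocytes, a difference of 3.81 (SE 0.25, adjusted p = 4.2e-08). Bmp6 read 5082, 5631 and 6212 on LSEC and 390.1, 276 and 367 on hepatocytes, a difference of 3.75 (SE 0.13). Both ligands were far higher on every LSEC array, and Bmp2 on LSEC array 3 was under the other LSEC arrays whereas Bmp6 was highest there. Bmp4 differed by 0.82 and was not called, although it passed the threshold without LSEC array 3 (1.15). Gdf2 (BMP9) and Bmp10 stayed below the pooled median of 224.5 on all 6 arrays of the pair. Bmp10 read 2853 and 5207 on the 1-day HSC arrays. Of the receptors, Bmpr1a was higher in hepatocytes (1336, 1257 and 1157 against 87.4, 142 and 139.5). So were the BMP co-receptor Hjv (521, 641 and 548 against 176, 127 and 159) and Tfr2 (1299.7, 1628 and 2049 against 105, 107 and 110.0). Bmpr2 was higher in LSEC by 1.5 but read 2237 ± 152 on hepatocytes too. The protease Tmprss6 of this axis was hepatocyte-high by 2.20. Hamp, which encodes hepcidin, the hormone that closes the iron exporter, read 9853, 10966 and 11723 on hepatocytes and 58.2, 51.7 and 60.3 on LSEC, a difference of 6.29 (SE 0.13). The feedback inhibitor Smad6 was LSEC-high by 1.14, Smad7 differed by 0.90 without a call, and Id1 and Id3, general BMP targets, by -0.47 and 0.16, the last changing sign under quantile normalization (-0.04). Hamp2 was hepatocyte-high by 1.24 but fell to a difference of 0.87 without hepatocyte array 3. In all, 5 of the 35 axis genes that passed were LSEC-high and 8 hepatocyte-high, of 38 measured. Over all genes tested these shares were 12.5% and 10.0%. The LSEC-high share is near the 12.5% of all genes tested, and nothing is read from the list's count on that side.

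The promoter of Hamp is shown because it carries the element through which BMP signalling is known to act on this gene. The 150 bases before the RefSeq start, at chr7:30944030-30944179 on the minus strand of GRCm38.p6, hold GGCGCC, the BMP-responsive element, and TTCTTGGAA, a STAT3 match, both in capitals.
Hamp: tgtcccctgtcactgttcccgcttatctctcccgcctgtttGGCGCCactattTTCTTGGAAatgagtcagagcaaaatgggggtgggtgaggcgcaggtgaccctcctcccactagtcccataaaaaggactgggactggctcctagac
GGCGCC began 109 bases and TTCTTGGAA 97 bases before the start. Searched on both strands over all 32851 windows, GGCGCC occurred in 11.9% and TTCTTGGAA in 0.417%. The shares were 16.3% and 0.328% for hepatocyte-high genes and 21.5% and 0.189% for LSEC-high genes, against 20.3% and 0.276% for genes tested. The arrays measure transcripts and say nothing of binding at these letters.

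The Wnt and R-spondin axis gave smaller differences, and most members were not called or did not pass the filter. Of 45 genes measured, 30 passed, 6 were LSEC-high and 8 hepatocyte-high, against 12.5% and 10.0% of all genes tested. Wnt2 read 446, 514 and 974 on LSEC and 173, 134 and 176 on hepatocytes, a difference of 1.51 (SE 0.2), with LSEC array 3 the highest. Rspo3, which prolongs Wnt receptor life, averaged 356 ± 54.5 on LSEC and 134 ± 37.9 on hepatocytes (intensity, mean ± SD, n = 3), without overlap. On the 1-day HSC arrays Rspo3 read 1977 and 3177, above every LSEC array. Its difference of 1.02 was 0.91 without hepatocyte array 1, 1.00 (just under the threshold) without hepatocyte array 2 and 0.93 without LSEC array 1, so its call rests on single arrays. Wls, the carrier that secretes Wnt proteins, read 1918, 2114 and 2081 on LSEC and 89.8, 103 and 157 on hepatocytes. Wnt9b, the other known Wnt of central vein endothelium, read 314, 295 and 329 and 340.2, 379 and 323 and did not separate the cells. The receptors fell on both sides. Fzd4 (2.79) and Fzd6 (1.15) were LSEC-high, Fzd7 (1.76) and the R-spondin receptor Lgr4 (1.87) hepatocyte-high, and Lrp6 differed by 0.25. The receptor ligase Rnf43 was hepatocyte-high by 1.13. Of the pericentral Wnt targets, Cyp2e1, Cyp1a2 (4.53), Lect2 (4.0), Oat (1.05) and Slc1a2 (1.14) were hepatocyte-high and Glul was not called. Oat fell to 0.95 without hepatocyte array 1. Axin2, Lgr5, Notum and Sp5 did not pass the filter.

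**Figure D3:**
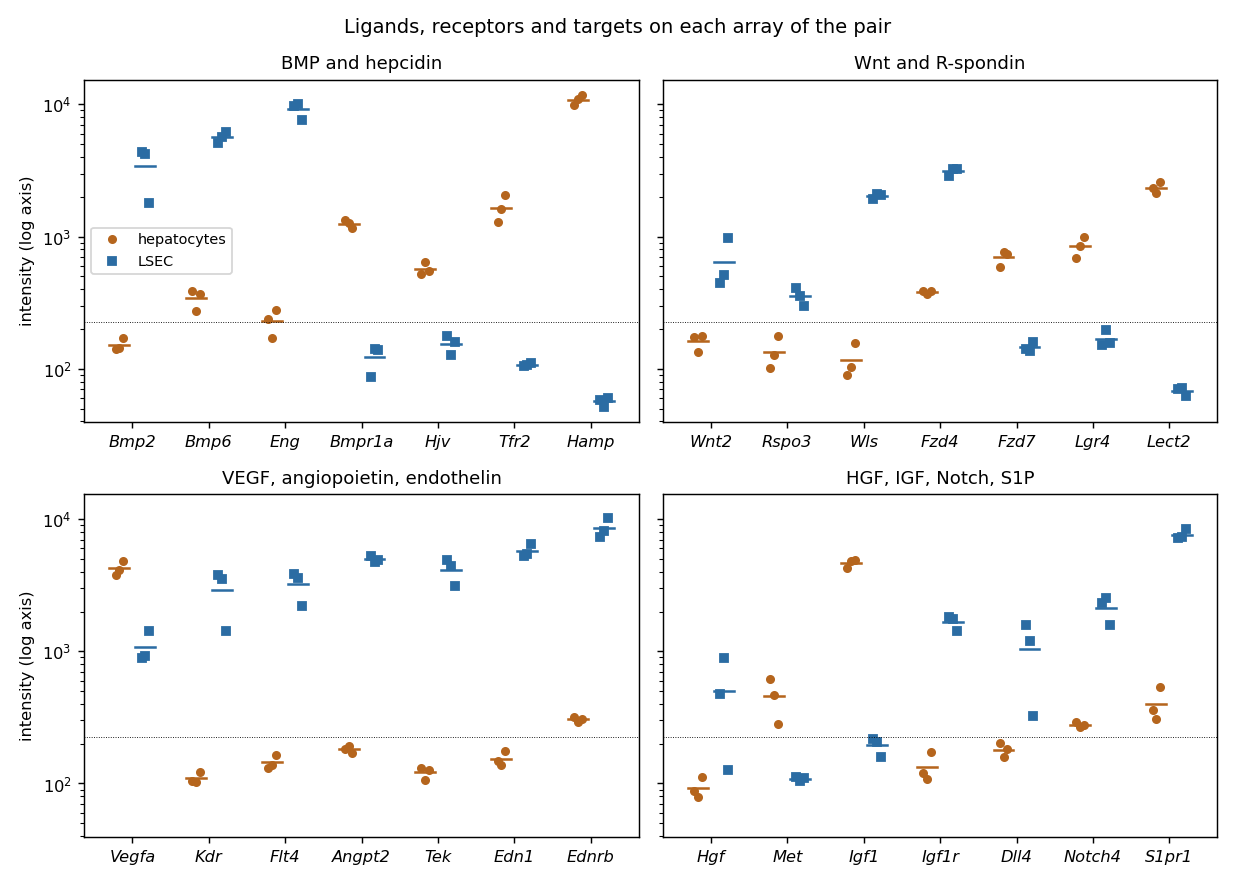
Intensity (log axis) of ligands, receptors and targets on each hepatocyte array (circles) and LSEC array (squares), with bars at the group means and a dotted line at the pooled median of 224.5. Bmp2, Bmp6, Wnt2, Angpt2 and Edn1 lie on the LSEC side, Hamp, Lgr4, Vegfa, Met and Igf1 on the hepatocyte side. The levels of different genes cannot be set against each other.

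The VEGF, angiopoietin and TAM axis ran mostly toward LSEC. Of 33 genes that passed (38 measured), 19 were LSEC-high and 3 hepatocyte-high, against 12.5% and 10.0% of all genes tested. Vegfa was the ligand on the hepatocyte side, at 3773, 4149 and 4841 on hepatocytes and 894, 925 and 1431 on LSEC, a difference of 1.92. The groups did not overlap, and the LSEC arrays were not at the bottom of the scale. Its receptors Kdr and Flt1 (2.46) were LSEC-high, and so was Flt4, the receptor of other VEGF ligands. Kdr read 3747, 3519 and 1422 on LSEC and 105, 102 and 122 on hepatocytes, and Flt4 read 3878, 3609.9 and 2213 and 131, 138 and 163. Both were lowest on LSEC array 3 among LSEC arrays. The co-receptor Nrp2 (4.41) was LSEC-high too. So were the further ligands Pgf (4.14) and Vegfb (1.13). Angpt2 and its receptor Tek were both on the LSEC side, at 4.26 and 4.35, and Angpt1 did not pass the filter. Apelin (Apln) was LSEC-high by 3.33. Endothelin 1 and its receptor were both LSEC-high. Edn1 read 5261, 5400.4 and 6492 on LSEC and 147, 139 and 175 on hepatocytes, and Ednrb read 7315, 8071 and 10152 and 319, 290.0 and 309. Both were highest on LSEC array 3, unlike Kdr and Flt4. The efferocytosis receptor Mertk (2.66) and its ligand Pros1 (3.26) were LSEC-high, whereas Gas6 (0.56) and Axl (0.57) were not called. The hepatocyte-high members beside Vegfa were the lipase inhibitors Angptl4 (3.48) and Angptl8 (2.37).

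Other growth factor pairs lay across the cells. On the list of Notch, HGF, EGF, FGF and TGF-beta genes, 12 were LSEC-high and 16 hepatocyte-high of 55 that passed (62 measured), against 12.5% and 10.0% of all genes tested, with a median of -0.02. Igf1 read 4284, 4789 and 4894 on hepatocytes and 218, 206 and 159.5 on LSEC. Its receptor Igf1r read the other way, 119.9, 108 and 173 on hepatocytes and 1831, 1740.4 and 1416 on LSEC. Igf1 averaged 5406 on Kupffer cells and Igf1r 2493 on 1-day HSC, so neither was particular to the pair. The binding proteins Igfbp1 (5.01) and Igfbp2 (3.71) were hepatocyte-high and Igfbp7 (4.47) LSEC-high. Hgf, a mitogen of hepatocytes, was LSEC-high by 1.47 (SE 0.4, adjusted p = 0.006), but its LSEC arrays read 474, 893 and 127, so that array 3 was near the hepatocytes (87.3, 79.2 and 112). The difference was 0.96 without LSEC array 2 and 2.07 without LSEC array 3. Hgf averaged 498 on LSEC but 996 on Kupffer cells and 1338 on 1-day HSC. Its receptor Met (1.44) and its activating protease Hgfac (3.22) were hepatocyte-high. The EGF receptor family was split, with Egfr (4.40) and Erbb3 (3.0) in hepatocytes and Erbb2 in LSEC (1.02, and 0.98 without hepatocyte array 3). Dll4, Notch4 and Notch1 were LSEC-high at 1.87, 2.59 and 1.85. Dll4 read 1594, 1201 and 326 on LSEC, and without array 3 its difference was 2.48. Notch2 (-0.68) was not called. Tgfb1 (2.97), the co-receptor Tgfbr3 (2.5) and the activin subunit Inhbb (2.45) were LSEC-high, the subunit Inhbc (1.49) and the activin trap Fst (2.74) hepatocyte-high. The cytokine receptors Lifr (2.05), Il6ra (1.41) and Ghr (1.23) were hepatocyte-high. Il6st, the signalling chain that Lifr and Il6ra use, was LSEC-high by 1.36 but read 1909 ± 182 on hepatocytes too.

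Among lipid mediator and vasoactive genes (35 passed of 41 measured), 10 were LSEC-high and 6 hepatocyte-high, against 12.5% and 10.0% of all genes tested, with a list median of 0.02. The sphingosine phosphate receptor S1pr1 read 7202, 7378 and 8367 on LSEC and 362, 307 and 534 on hepatocytes. Apom, the plasma carrier of that lipid, read 1127, 1635 and 1943 on hepatocytes and 71.5, 65.1 and 68.1 on LSEC. The exporter Spns2 (1.26) and the kinase Sphk2 (1.11) were LSEC-high. The endothelial nitric oxide synthase Nos3 (1.98), Ddah2, which removes its inhibitor (2.33), and the natriuretic peptide receptor Npr1 (2.53) were LSEC-high. Angiotensinogen (Agt, 4.72) and the receptor Agtr1a (1.75) were hepatocyte-high.

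Called coagulation genes were mostly hepatocyte-high. Of 38 genes that passed, of 40 measured, 22 were hepatocyte-high and 7 LSEC-high, against 10.0% and 12.5% of all genes tested. The LSEC-high share is not far above that of all genes, and nothing is read from that count. F8, clotting factor VIII, read 6966, 5639 and 3999 on LSEC and 105, 125 and 150.2 on hepatocytes, a difference of 4.71 (SE 0.19). Prothrombin (F2, 5.22) and plasminogen (Plg, 5.11) were hepatocyte-high like the fibrinogens. The anticoagulant genes Tfpi (3.29), Pros1, the protein C receptor Procr (2.77) and thrombomodulin, Thbd (2.37), were LSEC-high, as was the plasminogen activator Plau (3.18). Thbd read 1168, 1845 and 2636 on LSEC, with array 3 the highest. Complement gave 17 hepatocyte-high genes and 1 LSEC-high gene of 37, against the same 10.0% and 12.5%. The terminal components C9 (5.68), C8b (5.06) and Hc (4.54) and the inhibitor Serping1 (5.61) were hepatocyte-high. Cd55, which protects cells from complement, was the 1 LSEC-high gene, at 1849, 1827 and 1482 on LSEC and 55.3, 44.9 and 71.6 on hepatocytes.

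On the list of innate sensing and interferon genes (51 passed of 52 measured), 10 were LSEC-high and 4 hepatocyte-high, against 12.5% and 10.0% of all genes tested. Among its genes of lipopolysaccharide sensing, the signalling receptor Tlr4 read 836, 899 and 1064 on LSEC and 68.6, 44.5 and 59.0 on hepatocytes. Its co-receptor Cd14 read 5455, 5107 and 4441 on hepatocytes and 327, 261 and 252 on LSEC, and the carrier Lbp read 2104, 3154 and 3208 and 281, 312 and 260.0. The partner Ly96 differed by 0.92 and was not called. Sting1 (2.41), Irf8 (2.29), Nod1 (2.09) and Aim2 (2.03) were LSEC-high. Antigen presentation genes barely separated the cells. None of the 28 that passed, of 30 measured, was LSEC-high and 1 was hepatocyte-high, against 12.5% and 10.0% of all genes tested. The hepatocyte-high gene was Cd1d1, which presents lipids (546, 565 and 819 against 101, 109.8 and 92.2).

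Cytoskeleton and matrix genes leaned toward LSEC. Of 56 cytoskeleton and motility genes that passed, of 57 measured, 22 were LSEC-high and 2 hepatocyte-high. Over all genes tested the shares were 12.5% and 10.0%. Vim, the intermediate filament of mesenchyme and endothelium, read 14618, 13462 and 12152 on LSEC and 510.0, 453 and 699.7 on hepatocytes. Rasip1 (4.12), Tmsb4x (3.94) and Msn (3.73) followed. Of 50 matrix genes that passed, of 54 measured, 19 were LSEC-high and 3 hepatocyte-high, the latter a share under the 10.0% of all genes tested. The LSEC-high genes were led by Sparc and Timp3, a matrix-binding glycoprotein and a protease inhibitor, at 5.02 and 4.75. Then came Mmrn2, Bgn (3.28), the laminin chain Lama4 (3.27) and perlecan, Hspg2 (3.23). The 3 hepatocyte-high genes were the plasma adhesion proteins Vtn (5.87) and Fn1 (3.82) and the collagen Col18a1 (1.27). Of 36 respiratory chain genes, 4 were hepatocyte-high, a share near the 10.0% of all genes tested, and none LSEC-high (median -0.62). Of 27 antioxidant and peroxisome genes that passed, 15 were hepatocyte-high, against the same 10.0%, with urate oxidase, Uox, at 4.94.

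Summed markers of Kupffer and stellate cells were far lower on the arrays of the pair than in those cells, though some markers lay above the pooled median. The summed intensity of 12 Kupffer cell markers was 2237 to 3490 on hepatocyte arrays and 1719 to 2260 on LSEC arrays, against 109487 to 111276 on Kupffer arrays. Clec4f, Adgre1, Vsig4, Timd4, Cd163 and Fcgr4 were below the pooled median of 224.5 on all 6 arrays, whereas 3 of the 12 were above it on every hepatocyte array and 1 on every LSEC array. C1qb, a complement gene of macrophages, read 559.5, 452 and 914 on hepatocytes and 483, 387 and 193 on LSEC. For 12 stellate markers the sums were 2546 to 2993 and 2064 to 2932, against 33194 to 36286 on 1-day HSC, with Lrat, Des, Pdgfrb, Rgs5 and Tcf21 below the median on all 6. Above it were 5 of the 12 on every hepatocyte array and 2 on every LSEC array. The matrix gene Dcn read 481, 544 and 830.1 on hepatocytes and 823, 759.5 and 181 on LSEC, so that LSEC array 3 was far below the other LSEC arrays. The part of these signals in the differences was not tested. None of these 24 genes was called between hepatocytes and LSEC, against 22.5% of all genes tested in either direction. Several passed the filter only through Kupffer or HSC arrays and were low on all 6 arrays of the pair. A call was hardly possible for these, so nothing is read from this count. The 12 hepatocyte markers summed to 1436 to 1646 on LSEC arrays against 140938 to 146541 on hepatocytes, and the 14 LSEC markers to 3891 to 5310 on hepatocyte arrays against 69265 to 96511 on LSEC. All 12 and all 14 were called in the direction of their list, against 10.0% and 12.5% of all genes tested. These lists were chosen with earlier results of these data known, so the counts are no test of the labels. Of the cholangiocyte markers 1 of 7 measured passed, Sox9, which read 1294, 1841 and 2514 on hepatocytes and 256, 218 and 229 on LSEC, while Krt19, Krt7 and Epcam were below the median on all 6 arrays. The large-vessel genes Sox17 (2.90), Cd34 (2.79), Efnb2 (2.75) and Ackr1 (1.19) were LSEC-high, and Gja4 and Gja5 were below the median on all 6. Ackr1 read 457, 418 and 102 on the LSEC arrays, so that array 3 was near the hepatocytes (81.6, 82.8 and 72.3), and its difference was 1.68 without that array. LSEC array 3 was the lowest LSEC array for 919 of the 1510 LSEC-high genes, against 4755 of the 12081 tested. In bulk RNA, fewer cells of a type and less RNA per cell cannot be told apart, and the part of this array in each difference was not tested beyond leaving it out, which gave 1583 LSEC-high and 1214 hepatocyte-high genes.

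Kupffer cells and 1-day HSC were then placed relative to the pair. These contrasts reuse the hepatocyte and LSEC arrays, so the classes are counts of called genes and were not tested for overlap. Against hepatocytes, 1654 genes were higher in Kupffer cells (13.7%) and 1454 lower (12.0%), and 1481 were higher in 1-day HSC (12.3%) and 1225 lower (10.1%). Against LSEC, 1152 genes were higher in Kupffer cells (9.54%) and 1242 lower (10.3%), and 677 were higher in 1-day HSC (5.6%) and 633 lower (5.24%). For a gene of the pair, another population stood with the high side if it was called above the low side and not below the high side, with the low side in the mirror case, between if both calls were made and unresolved if neither was. Most hepatocyte-high genes were not shared: 713 of 1209 (59.0%) had both Kupffer cells and 1-day HSC on the LSEC side, with Hamp, Cyp2f2, Tat, C9 and Cyp2c23 (5.63) the widest. Among LSEC-high genes the counterpart, with both populations on the hepatocyte side, held 182 of 1510 (12.1%).

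**Figure D4:**
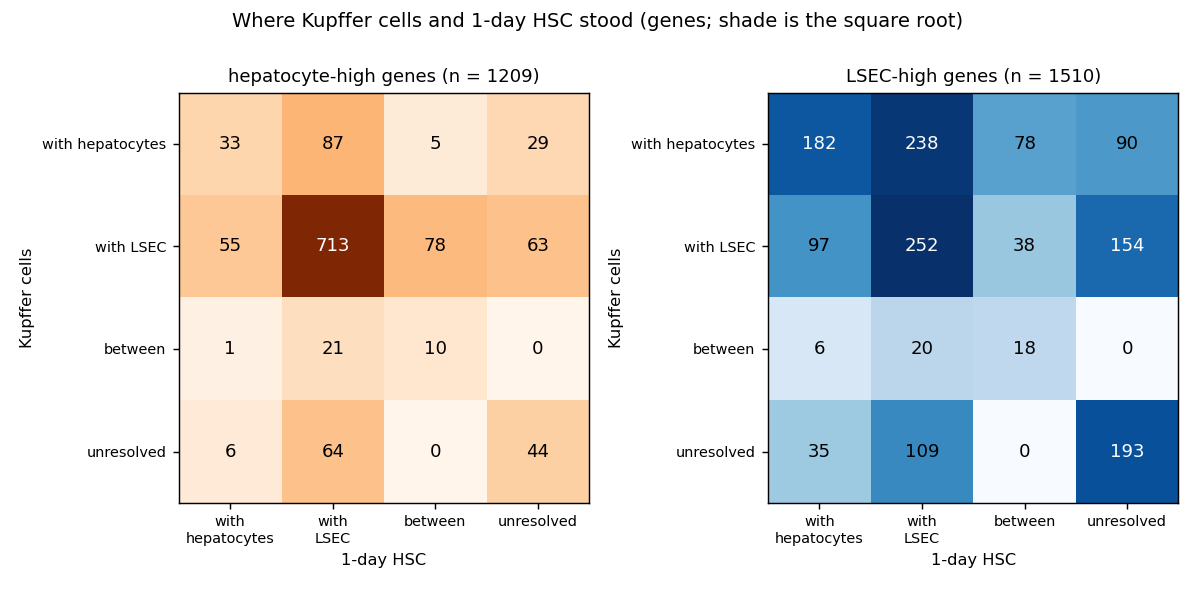
Number of hepatocyte-high genes (left) and LSEC-high genes (right) by where Kupffer cells (rows) and 1-day HSC (columns) stood. Of the hepatocyte-high genes 713 had both on the LSEC side, whereas the LSEC-high genes spread over the classes, with 252 where both stood with LSEC and 193 unresolved for both.

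Among LSEC-high genes, 252 (16.7%) were shared with both Kupffer cells and 1-day HSC, 238 (15.8%) with 1-day HSC alone and 97 (6.42%) with Kupffer cells alone. With the pooled median in place of the constant 83 these counts were 167, 175 and 60. The widest genes of the class shared with both were Dab2, Fxyd5 (4.13), the membrane-bound actin regulator Marcks (4.05), the actin-binding Tmsb4x and Cmtm3 (3.87). Dab2 averaged 323 on hepatocytes, 7518 on LSEC, 6051 on Kupffer cells and 4036 on 1-day HSC. The class shared with Kupffer cells alone was led by Mrc1 and the lysosomal peptidase Prcp (2.78), then Lrmda (2.71), Ripply3 (2.67) and Gngt2 (2.66). Mrc1 averaged 7698 on Kupffer arrays and 277 on 1-day HSC. The class of neither held Rasip1, the tight junction gene Cldn5 (4.09), Oit3 (4.07), Stab2 and the sialyltransferase St8sia4 (3.89). LSEC markers were uneven on Kupffer arrays. The 14 summed to 15920 to 18670, of which Cdh5, at 9635 on average, was the largest part. Clec4g averaged 1118 there against 265.5 on hepatocytes. Cldn5, at 254 against 294, and Lyve1, at 340 against 523, were lower than on hepatocytes, and Kdr and Tek were below the pooled median. The source of these signals and their part in the Kupffer class were not tested.

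The class shared with 1-day HSC alone was led by Sparc, Timp3, Tmem47, Emcn and the peroxidasin Pxdn (4.09). Sparc read 11697 and 11552 on the 1-day arrays, 15396 at 7 days and 17247 at 14 days, so that the 1-day arrays lay just below the LSEC arrays (13137, 12907 and 12363) and the later arrays above them. Timp3 read 12239.9 and 15280.3, 12931 and 13264. Emcn, a sialomucin of capillary endothelium, went the other way, with 1842 and 1588 at 1 day, 174 at 7 days and 455 at 14 days. Bmp2 belonged to the same class with 1553 and 1816, 394 and 113. The later arrays therefore separate members of this class: of the 238 genes, 159 were at least 1 log2 unit above hepatocytes on both later arrays, 47 on neither and 32 on 1 of them. For the 252 genes shared with both populations these numbers were 181, 45 and 26. The 14 LSEC markers summed to 15336 to 16078 on the 1-day arrays, and whether endothelial RNA was among the 1-day HSC RNA was not tested. Each later time has 1 array, so these are values without a test.

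The hepatocyte-high genes shared with 1 or both populations were fewer. Of 1209, 87 (7.2%) were shared with Kupffer cells alone, 55 (4.55%) with 1-day HSC alone and 33 (2.73%) with both, and with the pooled median as the constant the last count was 21. Cd14, which averaged 2549 on Kupffer cells and 346 on 1-day HSC, the complement component C6 (3.76), Pygl, AW112010 (3.20) and Rgs2, a brake on G protein signalling (3.13), led the Kupffer class. C6 averaged 6882 on Kupffer arrays, above its 2634 on hepatocytes. The class shared with 1-day HSC held lubricin, Prg4 (4.61), Egfr, Tlcd4 (3.96), Fn1 and the small heat shock protein Hspb8 (3.73). Egfr read 3448 and 4024 at 1 day and 5205 and 4935 later, and Fn1 6201 and 6432, 12682 and 17512, while Prg4 read 3116 and 2537 at 1 day and then 73.2 and 213. Of the 55 genes, 38 stayed at least 1 log2 unit above LSEC on both later arrays and 9 on neither. The class shared with both was low in LSEC alone, with the phosphatase Ptprj (3.52), the proteoglycan Sdc2 (2.71), Bmpr1a, the sulfate donor synthase Papss2 (2.61) and Gadd45g (2.52). Bmpr1a averaged 1250.0 on hepatocytes, 944 on Kupffer cells and 1618 on 1-day HSC, against 123 on LSEC.

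Hepatocyte transcripts were also present on arrays of the other cells. The 12 hepatocyte markers summed to 2569 to 6076 on Kupffer arrays and 11456 to 20297 on 1-day HSC arrays. Alb averaged 7570.2 on 1-day HSC, 2231 on Kupffer cells and 228 on LSEC, and read 114 and 113 at 7 and 14 days. Tat, Cps1, Tdo2 and Hamp were below the pooled median on both 1-day arrays and on all Kupffer arrays. Of the hepatocyte-high genes, 78 had Kupffer cells with LSEC and 1-day HSC between, among them Fgg, Cyp2e1 and Ahsg. The part of this signal in the classes was not tested.

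**Figure D5:**
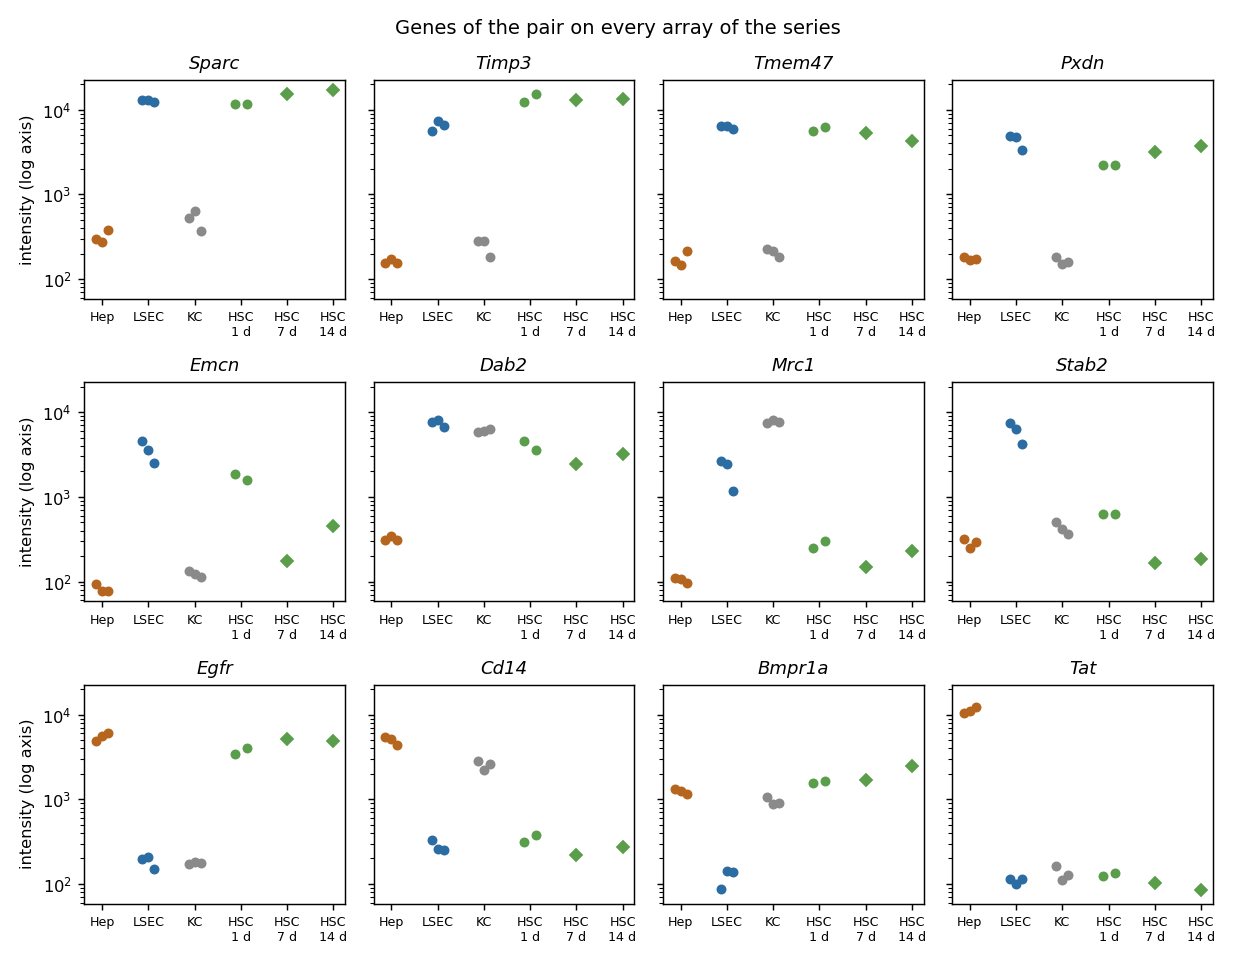
Intensity (log axis) of 12 genes on every array of the series, with hepatocytes (Hep), LSEC, Kupffer cells (KC) and HSC after 1, 7 or 14 days (d) of culture, 1 array each at the later times (diamonds). Sparc, Timp3 and Tmem47 are high in LSEC and in HSC at all times, Emcn and Stab2 are lower on the later HSC arrays than at 1 day, and Bmpr1a is low on LSEC arrays alone.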

How the data were processed

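The authors deposited 1 table of Affymetrix probe-set intensity values on a linear scale, 1 column per array. Per the submitters' processing notes the software was Expression Console of Affymetrix, with MAS5 5.0. How background and scale were set is not given in the sources used here. Of 25194 probe sets, 21181 had 1 gene symbol, 1379 several and 2634 none, and 21097 of the 21181 matched a current gene by Entrez number. Each gene was represented by the single-symbol probe set of highest mean. Of 641 genes with several probe sets past the filter, none had calls in opposite directions and 68 had some called and some not.

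The scale was log2(intensity + 83), 83 being the pooled 20th percentile (82.7) rounded. Genes above the pooled median of 224.5 on at least 2 of 11 arrays were kept. The 11 arrays (3 of hepatocytes, LSEC and Kupffer cells each, 2 of 1-day HSC) were fitted together in limma 3.58.1 (R 4.3.3), so groups share 1 estimate of the spread; tests were two-sided. The 7-day and 14-day HSC arrays gave values with no test.

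The members and the 35 gene lists were chosen with earlier results of these data known, and 2 promoter motifs (GGCGCC and TTCTTGGAA) were added after values were seen. Genes named are the 15 widest in each direction, up to 6 called per direction and 3 not called per list, the 5 widest of each sharing class, all cell type markers and any member of the ligand and receptor lists. On simulated intensities for the hepatocyte and LSEC comparison, over 12081 genes, the fit recovered 198, 200 and 200 of 200 genes changed by log2 1.5, 2 and 3. Alternatives tried were other constants, quantile normalization, other filters, the mean of all probe sets, other sets of arrays in the fit, an intensity trend, a replicate block and leaving out each array.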

Additional observations from a re-analysis of the deposited data

How the results depend on the processing

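The counts of LSEC-high and hepatocyte-high genes (1510 and 1209) stayed within 1.5 times under all alternatives run. They were 1069 and 986 with the pooled median as the constant, 1812 and 1355 with a constant of 16, and 1318 and 1304 with quantile normalization. The lowest and highest counts without 1 array were 1422 and 1638 for LSEC-high and 1190 and 1225 for hepatocyte-high genes. With the pooled median, the LSEC-high genes shared with Kupffer cells alone and with both populations numbered 60 and 167, and the hepatocyte-high genes shared with both 21. Without 1 array, the LSEC-high genes shared with Kupffer cells alone, 1-day HSC alone, both and neither ranged over 88 to 108, 221 to 253, 231 to 281 and 167 to 219, and the hepatocyte-high genes over 84 to 96, 48 to 61, 31 to 36 and 678 to 749. Replicate numbers did not pair the samples (correlations of deviations -0.101, -0.042 and -0.023), and a fit with the replicate block gave 1510 and 1209 again, with no change of call among named genes.

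Of 231 called genes named in the text, 14 fell under the fold threshold with the pooled median as the constant, which shrinks every difference by construction (sizes 0.69 to 1.00). They were Ackr1, Col18a1, Erbb2, Fzd6, Met, Oat, Oxct1, Prox1, Pygb, Rnf43, Rspo3, Slc1a2, Smad6 and Sphk2. Erbb2 and Sphk2 also did so with quantile normalization. Leaving out 1 array ended the call of 5 genes (Erbb2, Hamp2, Hgf, Oat and Rspo3). Another 6 genes that were not called passed both thresholds under some settings (Bmp4, Foxa2, Jam3, Nrp1, Rora and Zbtb20). No called gene turned its direction. Among genes that were not called, quantile normalization turned the sign of Clec4f, Gdf2 and Rgs5 (0.03 each) and of Id3 (-0.04). Without 1 array the differences ranged from -0.06 to 0.10 for Adgre1, -0.16 to 0.00 for Clec4f, -0.54 to 0.35 for Dcn, -0.02 to 0.09 for Des, -0.38 to 0.14 for Fmo1 and -0.35 to 0.04 for Vsig4. Genes whose intensity lies near or below the constant of 83 in 1 cell have differences set in part by that constant.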

Other observations

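Genes of the early response to handling and stress were measured as a list of 29, all of which passed the filter. Of these, 9 were higher in hepatocytes and 2 in LSEC, against 10.0% and 12.5% of all genes tested, with a median LSEC minus hepatocyte difference of -0.39. The hepatocyte-high genes included Btg2 (2.5), the messenger decay factor Zfp36 (2.41), Egr1 (2.22), Atf3 (1.54) and Socs3 (1.54). Egr1 read 3119, 3384 and 2855 on hepatocytes and 967, 707 and 305 on LSEC, and averaged 6276 on Kupffer arrays. Socs3, the feedback inhibitor of cytokine receptors, read 799.6, 2195 and 1633 on hepatocytes and 428, 432 and 454 on LSEC, so that the hepatocyte arrays differed among themselves. Fosl2 (1.65) and Nr4a2 (1.48) were the LSEC-high genes. Fos differed by -0.54 and was not called. Whether isolation changed these genes was not tested.

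On the cell cycle list 6 genes were LSEC-high and 2 hepatocyte-high of 28 that passed, of 33 measured (median 0.14), against 12.5% and 10.0% of all genes tested. Ccnd2, a D-type cyclin, read 3900.2, 3963 and 3275 on LSEC and 336, 249 and 324 on hepatocytes. Rrm2, a subunit of ribonucleotide reductase, read 2571, 1839 and 2519 on hepatocytes and 151, 138 and 145 on LSEC. Rb1 (2.23) and Cdk4 (1.68) were LSEC-high and Cdk6 (1.58) hepatocyte-high. Among the red cell and platelet markers, 1 of 5 that passed was called, a share near the 22.5% of all genes tested. The called gene was Alas2, the erythroid haem synthase, at 1313, 1658 and 1692 on hepatocytes and 130.1, 138 and 140.4 on LSEC. On the antioxidant list the 1 LSEC-high gene was the quinone reductase Nqo1, whose LSEC arrays read 336, 634 and 1145 and whose difference of 1.47 became 1.09 without array 3.

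Of 2162 probe sets without a single gene symbol that passed the same filter, 106 were higher in LSEC and 149 in hepatocytes by the same rule, and they are not named here.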
